A study of Homo sapiens with 18 samples.

Results

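The genes of the mitochondrial genome, taken as every gene that the count table places on chrM, numbered 36 of 31004. They comprised 2 rRNAs, 13 mRNAs and 21 tRNAs. The remaining tRNA, MT-TI, was not analysed here. RNA came from HCT116, a long-established line of human colorectal carcinoma cells, in 18 libraries that fell into 6 groups of 3 biological replicates. Cells stably carried a lentiviral pTSB-GFP-puro construct selected with puromycin, which was empty (Ctrl), expressed the long noncoding RNA CRLM1 (CRLM1) or expressed its antisense sequence (Antisense, which the labels call antisense control). Each of the 3 backgrounds then received a plasmid for hnRNPK, a nucleic acid binding protein, or its negative control (NC). The groups are Ctrl_NC, CRLM1_NC, Antisense_NC, Ctrl_hnRNPK, CRLM1_hnRNPK and Antisense_hnRNPK. All groups therefore carried a vector backbone, and untransduced cells were not analysed here.

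Human mitochondrial DNA is a circle transcribed from both strands into long precursor RNAs. The tRNAs lie between most of the other genes, and their excision by RNase P and RNase Z releases the rRNAs and mRNAs. The rRNA genes MT-RNR1 (12S, small ribosomal subunit) and MT-RNR2 (16S, large ribosomal subunit) sit at the start of the heavy-strand transcript, and the mRNAs follow. All mRNAs encode subunits of the oxidative phosphorylation complexes: 7 belong to complex I (NADH dehydrogenase), 1 to complex III (MT-CYB, cytochrome b), 3 to complex IV (cytochrome c oxidase) and 2 to complex V (ATP synthase). MT-ND6 is the only one of the 13 mRNAs encoded on the light strand. Nuclear genes supply the remaining subunits and the proteins for transcription, processing and translation.

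The tRNA genes that border the rRNAs are shown first, because their reads can come from either the mature tRNA or an unprocessed precursor. Sequences are from the GRCh38 chrM record of 16569 bases, plus strand, 5′ to 3′, with the gene in capitals and 15 bases of each neighbour in lower case. MT-TF (tRNA-Phe) precedes MT-RNR1, MT-TV (tRNA-Val) lies between the rRNAs, and MT-TL1 (tRNA-Leu) follows MT-RNR2.
MT-TF, chrM:562-662: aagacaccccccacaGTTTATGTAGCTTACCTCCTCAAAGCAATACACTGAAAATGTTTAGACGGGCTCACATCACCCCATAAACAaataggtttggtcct
MT-TV, chrM:1587-1685: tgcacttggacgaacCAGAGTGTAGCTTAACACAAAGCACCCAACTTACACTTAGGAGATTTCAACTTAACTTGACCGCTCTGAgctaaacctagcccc
MT-TL1, chrM:3215-3319: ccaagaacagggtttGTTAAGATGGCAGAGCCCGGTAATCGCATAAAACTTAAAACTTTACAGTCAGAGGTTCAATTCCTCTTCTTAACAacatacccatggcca

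In these stretches the gene borders touch: MT-RNR1 occupies 648 to 1601, MT-TV 1602 to 1670 and MT-RNR2 1671 to 3229, with no base between them. The mRNA genes overlap within 2 bicistronic messages, which limits how reads can be assigned there, and MT-ATP6 also shares 1 base with MT-CO3 at 9207. The bicistronic overlaps are shown in capitals with 15 bases on each side. MT-ATP8 (8366 to 8572) and MT-ATP6 (8527 to 9207) share 46 bases, and MT-ND4L (10470 to 10766) and MT-ND4 (10760 to 12137) share 7.
MT-ATP8 and MT-ATP6, chrM:8512-8587: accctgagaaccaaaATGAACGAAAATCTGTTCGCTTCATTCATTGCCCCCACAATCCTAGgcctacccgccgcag
MT-ND4L and MT-ND4, chrM:10745-10781: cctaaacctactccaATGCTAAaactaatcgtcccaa

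Total counts per library ranged from 19732681 to 27039520, so counting error was small for rRNAs and mRNAs but not for most tRNAs. HNRNPK measured 419 to 480 CPM (counts scaled to a common library size by TMM over all libraries) in the NC libraries. It measured 626, 656 and 490 CPM in Ctrl_hnRNPK, 677, 717 and 581 in CRLM1_hnRNPK, and 534, 532 and 573 in Antisense_hnRNPK. In the Ctrl and CRLM1 backgrounds, the third hnRNPK library stood apart from the other two, and the study left both such libraries out because of their profiles. The counts of calls and the main values of the hnRNPK comparisons are therefore given with all libraries and also without the third hnRNPK library. LINC01767, the gene of CRLM1, measured 0 CPM in every Ctrl library and 583 to 670 CPM in the CRLM1 libraries. It measured 38.4 to 49.8 CPM in the Antisense libraries, and the source of those reads was not tested. The log2 fold changes of nuclear genes in the hnRNPK comparisons went with the GC content of the gene (Spearman's rho of -0.71, -0.64 and -0.72 for Ctrl, CRLM1 and Antisense, across genes, which are not independent). Between the NC groups rho was nearer to 0. It was -0.16 for CRLM1_NC against Ctrl_NC, 0.29 for CRLM1_NC against Antisense_NC and -0.30 for Antisense_NC against Ctrl_NC. In the marker check of the cell line, 6 of 8 epithelial markers exceeded 1 CPM in every library, while all 3 endothelial markers and the 3 leukocyte markers listed in the table stayed under it. Of 4 fibroblast markers 1 exceeded it, COL1A1 at 11.2 to 32.3 CPM, and the others stayed under it. The summed epithelial level was 6642 to 6900 CPM in Ctrl_NC, 7923 to 8143 in CRLM1_NC, 5232 to 5513 in Antisense_NC, 4748 to 7618 in Ctrl_hnRNPK, 5542 to 9446 in CRLM1_hnRNPK and 3459 to 3553 in Antisense_hnRNPK, and its part in the results was not tested. In bulk RNA, a change in the number of mitochondrial genomes, in RNA per genome or in cell makeup cannot be told apart.

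Per unit length, MT-RNR2 was the most abundant mitochondrial RNA of the empty control cells. In Ctrl_NC it reached 7373 ± 152 FPKM (SD, n = 3), the authors' unit of fragments per exon length and sequencing depth. MT-CO3, a core subunit of cytochrome c oxidase, followed at 3532 ± 84.8 FPKM, then the joined messages MT-ND4L at 3178 ± 244 and MT-ND4 at 2873 ± 117. MT-ND5 (2059 ± 110), MT-CYB (1821 ± 57.9) and MT-RNR1 (1671 ± 14.2) formed the middle of the order. MT-CO1 and MT-CO2, the catalytic subunits of complex IV, lay at 1514 ± 47.0 and 1508 ± 21.1 FPKM and did not differ beyond their spread. The lowest mRNAs were MT-ND6 at 361 ± 30.6, MT-ATP6 at 213 ± 1.61 and MT-ND2 at 112 ± 3.49 FPKM. The spread of MT-ND2 reached the mean of the tRNA MT-TC at 115 ± 2.36. The low end of this order includes genes whose reads can also align to a nuclear copy, described further down. How any rRNA depletion or poly(A) selection bears on the place of the rRNAs was not tested.

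The rRNA and mRNA shares of the counts moved together between the NC backgrounds and apart under the hnRNPK construct. In the NC libraries the rRNA share was 1.70%, 1.71% and 1.75% for Ctrl_NC, 2.07%, 2.05% and 2.03% for CRLM1_NC, and 3.09%, 3.19% and 3.05% for Antisense_NC. The mRNA share was 2.39%, 2.34% and 2.49% in Ctrl_NC, 3.03%, 2.93% and 2.91% in CRLM1_NC, and 3.81%, 3.98% and 3.58% in Antisense_NC. Both shares therefore stood in the order Ctrl_NC, CRLM1_NC, Antisense_NC, with no overlap between groups. With hnRNPK the rRNA share was 3.65%, 3.64% and 1.79% in the Ctrl background, 3.66%, 3.20% and 1.94% in the CRLM1 background, and 3.98%, 3.27% and 4.93% in the Antisense background. The mRNA share was 1.87%, 1.72% and 2.08%, then 2.46%, 2.21% and 2.73%, then 1.89%, 1.85% and 2.06% in the same libraries. In every background all hnRNPK libraries thus had a lower mRNA share than all NC libraries. The rRNA shares of the hnRNPK and NC libraries did not overlap in the Ctrl or Antisense background, where the hnRNPK libraries were higher, and the third library of CRLM1_hnRNPK lay below its NC libraries.

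Relative to the mRNAs, the rRNAs were more abundant in every hnRNPK library than in any NC library of its background. The ratio of rRNA counts to mRNA counts was 0.71, 0.729 and 0.701 in Ctrl_NC against 1.95, 2.11 and 0.861 in Ctrl_hnRNPK. It was 0.683, 0.699 and 0.699 in CRLM1_NC against 1.49, 1.45 and 0.713 in CRLM1_hnRNPK, where the lowest library exceeded the highest NC library by little. In the Antisense background it was 0.813, 0.802 and 0.85 against 2.1, 1.76 and 2.39, so there the third library did not fall back towards NC. As a difference of log2 ratios, hnRNPK minus NC was 1.10, 0.73 and 1.33 for Ctrl, CRLM1 and Antisense, and 1.51, 1.08 and 1.23 without the third hnRNPK library. This ratio does not depend on the library size or the normalization, since both counts come from the same library. It can depend on rRNA depletion or poly(A) selection, which are not given in the sources used here, and their part was not tested. Nuclear genes of like GC content (39.6% to 47.7%) had median log2 fold changes of 0.26, 0.23 and 0.42 under hnRNPK, and 0.44, 0.40 and 0.36 without the third library, while the medians of the mRNAs, which set that GC range, were below 0.

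**Figure D1:**
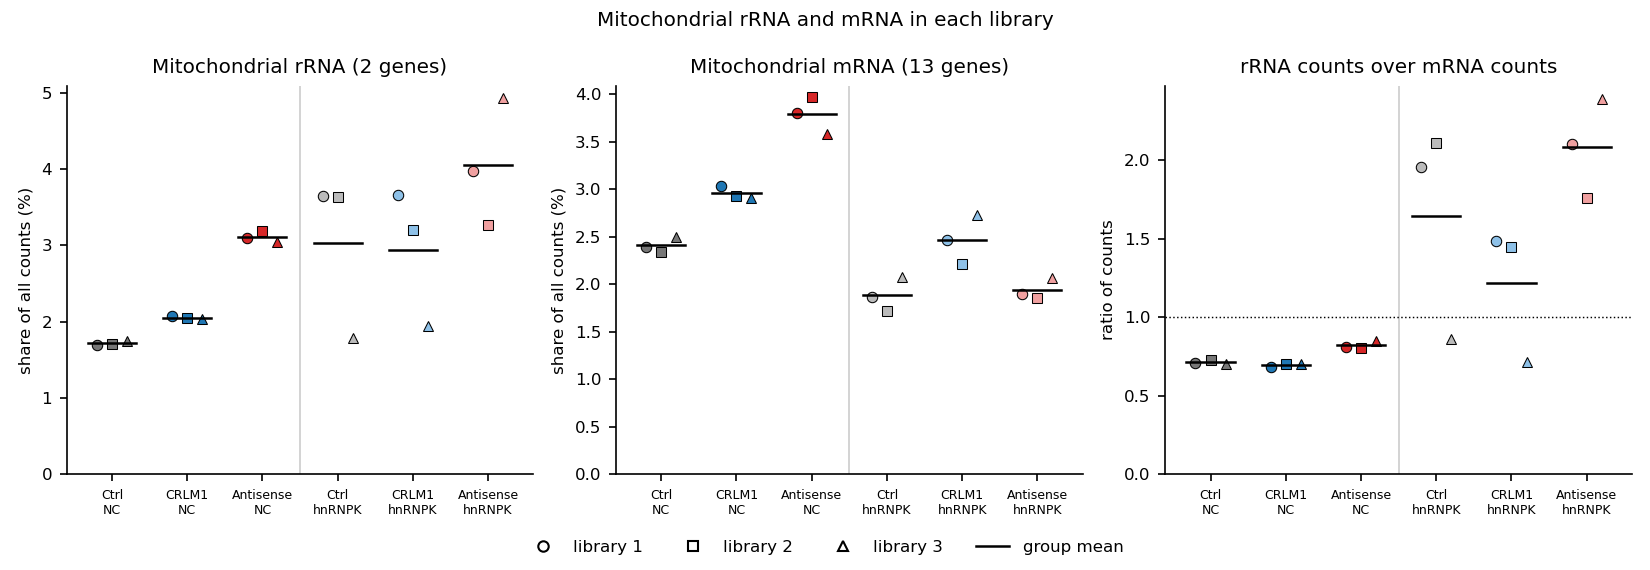
Mitochondrial rRNA share of counts (left, percent), mitochondrial mRNA share (middle, percent) and the ratio of rRNA to mRNA counts (right) in the 6 groups, with a point for each library and a bar at the group mean. Circles, squares and triangles are libraries 1, 2 and 3, and the triangles of Ctrl_hnRNPK and CRLM1_hnRNPK, at ratios of 0.861 and 0.713, lie next to the NC libraries.

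The tRNAs took a small fraction of the counts. Among the NC groups their summed share (mean ± SD, n = 3) was lowest in Ctrl_NC at 0.00362% ± 9.63e-05, followed by CRLM1_NC at 0.00563% ± 0.000578 and Antisense_NC at 0.0101% ± 0.000639. With hnRNPK it was 0.00340% ± 0.00101, 0.00429% ± 0.000947 and 0.00638% ± 0.000572 in the Ctrl, CRLM1 and Antisense backgrounds. Among the 21 tRNA genes, MT-TF held 6442 counts over all libraries, MT-TC 5733 and MT-TL1 3572, while MT-TM held 7, MT-TW 6 and MT-TD 2. Between 8 and 12 tRNAs passed the filter on low counts, depending on the comparison, and the rest could not be tested. These genes are 59 to 75 bases long, shorter than a read of 151 nt, and how such short RNAs fared in library preparation was not tested.

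Antisense_NC was set against Ctrl_NC to compare the mitochondrial RNAs of these backgrounds. The backgrounds are different transduced and selected cell populations. An effect of the expressed RNA therefore cannot be told apart from other differences between the populations. Both rRNAs and 12 of 13 mRNAs were higher in Antisense_NC, and MT-CYB alone among them was lower. The increases were not uniform: the complex I mRNAs MT-ND2, MT-ND3 and MT-ND1 at least doubled, while MT-CO1 rose by 0.24 on the log2 scale. Of 26 mitochondrial genes tested, 22 were higher and 2 lower at an adjusted p of at most 0.05 by edgeR's quasi-likelihood test, with a median log2 fold change of 0.60. Across all genes tested in this comparison 66.5% passed the same threshold, 34.4% higher and 32.2% lower. At a fold change of 2 or more, 9 were higher and 1 lower, against 7.19% and 6.94% of all genes in the same directions. The counts changed to 19 higher and 2 lower when all 18 libraries shared a fit, in which 2875 of all 15668 genes were higher and 2218 lower.

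MT-ND2 (ENSG00000198763.3, 4470 to 5511), a membrane subunit of complex I, measured 171, 161 and 168 CPM in Ctrl_NC and 655, 703 and 603 CPM in Antisense_NC. The log2 fold change, given here and elsewhere ± SE, was 1.94 ± 0.0429 (adjusted p = 1.8e-25), or 3.83-fold. MT-ND3 (ENSG00000198840.2, 10059 to 10404), another membrane subunit, rose from 265, 269 and 306 CPM to 815, 856 and 848 CPM, which was 2.93-fold (1.55 ± 0.0405). MT-ND1 (ENSG00000198888.2, 3307 to 4262), at the junction of the membrane arm with the quinone site, rose from 1049, 972 and 1091 CPM to 2424, 2526 and 2260 CPM (1.18 ± 0.0395). For each of the 3 genes the lowest Antisense_NC library was above the highest Ctrl_NC library. MT-CYB (ENSG00000198727.2, 14747 to 15887), the only mitochondrial gene of complex III and the last mRNA of the heavy-strand transcript, measured 2954, 2886 and 3061 CPM in Ctrl_NC and 1924, 1991 and 1851 CPM in Antisense_NC. It fell by 0.66 on the log2 scale (± 0.0301, adjusted p = 9.2e-21), and over all alternatives its log2 fold change stayed between -0.70 and -0.63.

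MT-RNR2 (ENSG00000210082.2) rose from 16275, 16196 and 16767 CPM to 27264, 28521 and 27072 CPM in Antisense_NC (0.72 ± 0.0255, adjusted p = 5.5e-24). MT-RNR1 (ENSG00000211459.2) rose less, from 2258, 2280 and 2293 CPM to 3408, 3408 and 3372 CPM (0.54 ± 0.0271, adjusted p = 1.6e-19). The 3 tRNAs printed above, which flank these rRNAs, rose more than either: MT-TF by 2.19 on the log2 scale, MT-TV by 1.63 and MT-TL1 by 1.39. MT-TF measured 6.71, 7.40 and 8.11 CPM in Ctrl_NC and 33.5, 36.2 and 35.0 CPM in Antisense_NC. The remaining mRNAs rose by 0.24 to 0.66, among them MT-ND4L by 0.66, MT-ND4 by 0.62, MT-ND5 by 0.58, MT-ATP8 and MT-CO2 by 0.54 each, MT-ATP6 by 0.51 and MT-CO3 and MT-ND6 by 0.45 each. Nuclear genes of like GC content had a median log2 fold change of 0.15 in this comparison. Over all alternatives MT-ATP8 ranged from 0.23 to 0.59 and MT-ATP6 from 0.38 to 0.59. MT-TS1, a light-strand tRNA next to MT-CO1, fell by 2.46 (adjusted p = 1.5e-04). This rests on low counts, with means of 0.741 CPM in Ctrl_NC and 0.136 CPM in Antisense_NC. Its reads can also align to a nuclear copy, as described further down for other genes.

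**Figure D2:**
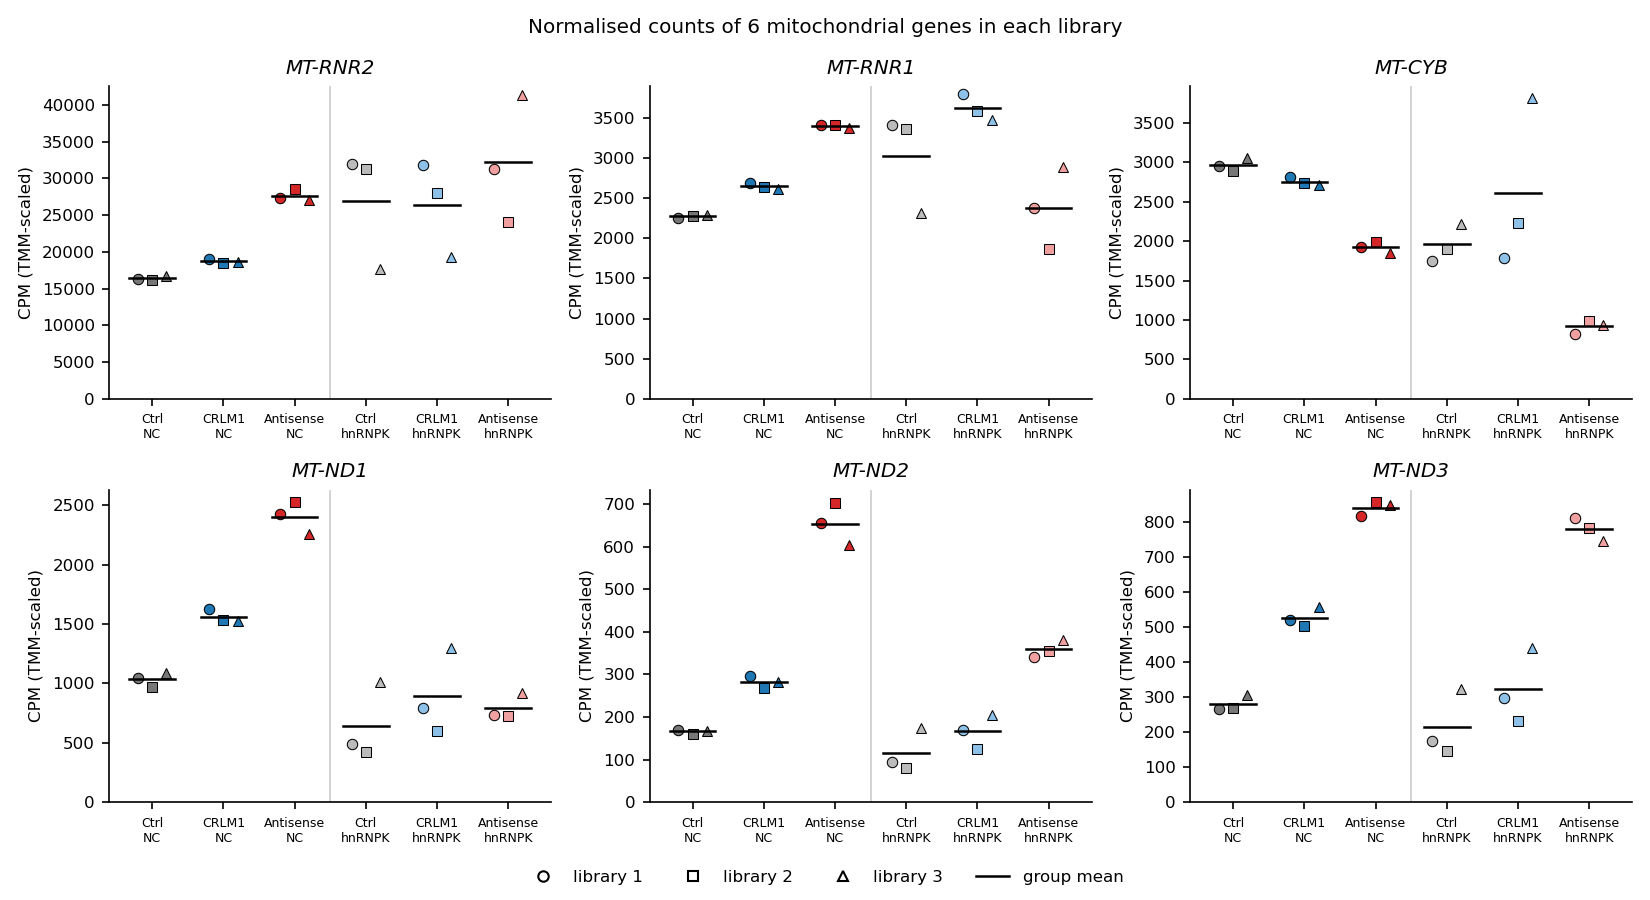
TMM-scaled counts (CPM) of MT-RNR2, MT-RNR1, MT-CYB, MT-ND1, MT-ND2 and MT-ND3 in each library of the 6 groups, with a bar at the group mean. MT-ND2 and MT-ND3 are higher in every Antisense_NC library than in any Ctrl_NC library, whereas MT-CYB is lower in every one.

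CRLM1_NC against Ctrl_NC compares the CRLM1 and empty backgrounds without added hnRNPK, with the same Ctrl_NC libraries as the comparison just described. The same limit on separating the RNA from the cell population holds. Both rRNAs and 10 of 13 mRNAs were higher in CRLM1_NC, none of the mRNAs by 2-fold. Of 24 mitochondrial genes tested, 17 were higher and 1, MT-CYB, was lower by edgeR's quasi-likelihood test, with a median log2 fold change of 0.25. Among all genes 34.3% passed, 16.9% higher and 17.4% lower. When all 18 libraries shared a fit, its spread included the hnRNPK groups. None of the 24 then passed (0 higher, 0 lower) and 8 had an unadjusted p under 0.05. Few genes of any kind passed in that fit: 53 were higher and 49 lower of 15668, with 2008 at an unadjusted p under 0.05. DESeq2 on the 2 groups called 16 mitochondrial genes higher and 1 lower, against 1917 and 2082 of 13958 genes.

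The genes with the largest differences among the mRNAs were MT-ND3, MT-ND2 and MT-ND1. MT-ND3 measured 521, 502 and 556 CPM in CRLM1_NC, a log2 fold change of 0.89 ± 0.0458 (adjusted p = 9.0e-12). MT-ND2 measured 296, 268 and 282 CPM (0.74 ± 0.0366), and MT-ND1 1628, 1531 and 1521 CPM (0.57 ± 0.0328). None of these libraries overlapped with Ctrl_NC. The rRNAs differed by little but without overlap: MT-RNR2 was at 19039, 18471 and 18653 CPM (log2 fold change 0.17, adjusted p = 5.3e-08) and MT-RNR1 at 2691, 2635 and 2611 CPM (0.20, adjusted p = 2.6e-08). MT-CYB measured 2817, 2737 and 2711 CPM and fell by 0.12 (adjusted p = 2.5e-04). The complex V pair MT-ATP8 and MT-ATP6 did not pass, at 0.03 (adjusted p = 0.622) and 0.01 (adjusted p = 0.907). The genes at 2-fold or more were the tRNAs MT-TQ (1.73) and MT-TN (1.27), both from low counts, where 0.775% of all genes were higher and 0.809% lower by as much.

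Set directly against Antisense_NC, CRLM1_NC had lower mitochondrial RNA. Of 26 genes tested, 18 were lower and 1 was higher by edgeR, with a median log2 fold change of -0.42 and 56.4% of all genes passing (26.9% higher, 29.5% lower). At 2-fold or more, 4 were lower and 0 higher, against 3.17% and 4.01% of all genes. A shared fit of all libraries left 5 lower and 0 higher, where 1355 of all 15668 genes were lower and 1001 higher. MT-CYB was the gene with more RNA in CRLM1_NC, by 0.54 (adjusted p = 8.7e-18). MT-ND2 was lower by 1.19, MT-ND3 by 0.65, MT-ND1 by 0.60, MT-RNR2 by 0.54 and MT-RNR1 by 0.34 on the log2 scale, and MT-TF by 1.77. MT-CO1, with a log2 fold change of -0.06 (adjusted p = 0.106), was the mRNA that did not pass.

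**Figure D3:**
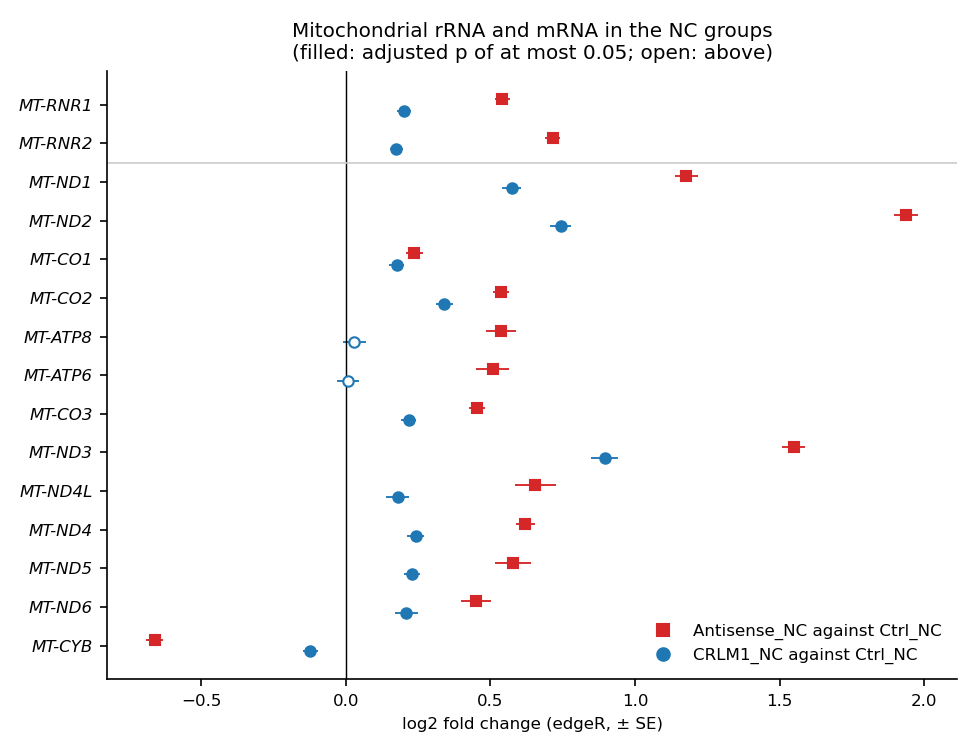
Log2 fold changes with standard errors of the 2 rRNAs and 13 mRNAs for Antisense_NC against Ctrl_NC (squares) and CRLM1_NC against Ctrl_NC (circles), filled where the adjusted p was at most 0.05. The comparisons share the Ctrl_NC libraries. MT-ND2 lies at 1.94 and 0.74, MT-CYB at -0.66 and -0.12.

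As percentages of all mitochondrial mRNA counts, which no library scaling can alter, the same genes changed places. MT-ND2 made up 0.636% ± 0.0175 (SD, n = 3) of the mRNA counts in Ctrl_NC, which became 0.915% ± 0.0236 in CRLM1_NC and 1.73% ± 0.0409 in Antisense_NC. MT-ND3 made up 1.07%, 1.71% and 2.23%, and MT-ND1 3.96%, 5.06% and 6.36%. MT-CYB made up 11.3%, 8.95% and 5.09% in the same order, so its part of the mRNA pool in Antisense_NC was less than in either other group. Abundant messages other than MT-CYB moved by less in proportion. MT-ND4 made up 21.6%, 21.9% and 23.6%, MT-ND5 20.3%, 20.5% and 21.5%, and MT-CO3 15.1%, 15.1% and 14.7%. MT-CO1 made up 12.7%, 12.4% and 10.7%. For MT-CO1 the Antisense_NC libraries (10.5% to 10.9%) lay below those of Ctrl_NC (12.6% to 12.9%).

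With the hnRNPK construct in the Ctrl background, no mitochondrial gene passed when all libraries were used, and the third library set that result. Of 23 genes tested by edgeR, 0 were higher and 0 lower, where 0.0% of all genes passed. DESeq2 also called 0, and 10 of the 23 had an unadjusted p under 0.05 in edgeR (1 rRNA and 9 mRNAs), as did 2246 of all 14607 genes. Without the third Ctrl_hnRNPK library, both rRNAs were higher and all 13 mRNAs and 5 tRNAs were lower, that is 2 higher and 18 lower, while 59.6% of all genes passed (29.6% higher, 29.9% lower). At 2-fold or more, 3 were then lower and 0 higher, against 1.71% and 5.17% of all genes. The median log2 fold change of the mRNAs was -0.52 with all libraries and -0.80 without the third.

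MT-RNR2 measured 31895 and 31276 CPM in the first Ctrl_hnRNPK libraries and 17658 CPM in the third, against 16196 to 16767 CPM in Ctrl_NC. All 3 lay above Ctrl_NC, the third by little. Its log2 fold change was 0.68 with all libraries and 0.94 without the third (adjusted p = 2.3e-11 by edgeR), and that of MT-RNR1 was 0.37 and 0.57 (adjusted p = 9.4e-09). Among the mRNAs, MT-ND1 measured 489, 420 and 1012 CPM, so the third library lay inside the Ctrl_NC range and the log2 fold change was -0.74 with it and -1.19 without it (adjusted p = 1.1e-09). MT-ND6, the light-strand mRNA, went from -0.70 to -1.01, MT-ND2 from -0.56 to -0.93 and MT-ND5 from -0.62 to -0.85. MT-CYB, at 1750, 1907 and 2220 CPM, was lower than Ctrl_NC in all 3 libraries (log2 fold change -0.64, and -0.70 without the third). The complex IV mRNAs MT-CO2 and MT-CO3 had smaller differences, -0.38 and -0.42 for each.

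In the CRLM1 background the rRNAs were likewise above and the mRNAs, except MT-CO2, below their NC levels on average, without passing the test. With all libraries 0 of 23 genes were higher and 0 lower by edgeR, with 0.0% of all genes passing and 0 mitochondrial calls by DESeq2. In edgeR 10 had an unadjusted p under 0.05 (2 rRNAs, 6 mRNAs and 2 tRNAs), as did 1332 of all 14394 genes. Without the third CRLM1_hnRNPK library, 2 were higher, both of them rRNAs, and 18 were lower, among them all 13 mRNAs, where 58.5% of all genes passed (29.5% higher, 29.1% lower). By 2-fold or more, 3 were lower and 0 higher, with 2.23% and 3.07% of all genes. The mRNA median was -0.23 with all libraries and -0.42 without the third.

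MT-RNR2 measured 31819, 27984 and 19332 CPM in CRLM1_hnRNPK, with all libraries above the 18471 to 19039 CPM of CRLM1_NC. Its log2 fold change was 0.53, and 0.71 without the third library (adjusted p = 5.2e-13 by edgeR), and MT-RNR1 had 0.48 and 0.52. MT-ND1 measured 793, 598 and 1302 CPM against 1521 to 1628 CPM, which is -0.78 with all libraries and -1.13 without the third (adjusted p = 3.7e-09). MT-ND2 (-0.74 and -0.90) and MT-ND3 (-0.69 and -0.95) were near it. MT-CYB and MT-CO2 depended on the third library, which was the highest of the group for both. MT-CYB measured 1788, 2232 and 3820 CPM, from below to above the NC range, for log2 fold changes of -0.06 and -0.42. MT-CO2 measured 1634, 1709 and 2461 CPM and turned from 0.06 to -0.14.

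In the Antisense background the mRNAs were lower with all libraries. The Antisense_NC libraries are the same as in the comparisons between backgrounds, where most mRNAs were high in them. Of 26 mitochondrial genes tested, 0 were higher and 19 lower by edgeR: 12 of 13 mRNAs, MT-RNR1 and 6 tRNAs. Of all genes 63.9% passed, 33.4% higher and 30.5% lower. The median log2 fold change of the mRNAs was -1.16, and 9 of them fell by at least 2-fold, where 6.1% of all genes did so and 7.28% rose by as much. Without the third library, 20 were lower and 0 higher, where 62.3% of all genes passed (31.0% higher, 31.3% lower). Of the 13 mRNAs 11 had then fallen by 2-fold or more, against 7.86% of all genes, with 7.58% higher by as much.

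MT-ND5 (12337 to 14148), a proton-pumping subunit of complex I, fell from 8156, 8790 and 7497 CPM in Antisense_NC to 2593, 2218 and 3129 CPM in Antisense_hnRNPK, a log2 fold change of -1.63 ± 0.120 (adjusted p = 1.4e-07), or -1.81 without the third library. MT-ND1 fell by 1.60 (± 0.101, adjusted p = 9.1e-08), from between 2260 and 2526 CPM to 736, 729 and 921 CPM. MT-ND1 had -1.76 without the third library. MT-ND4 fell by 1.32, MT-ND6 by 1.25, MT-CO1 by 1.16, MT-CYB by 1.07 and MT-ND2 by 0.87, and without the third library by 1.52, 1.25, 1.28, 1.13 and 0.96. MT-ND3 was the mRNA that did not pass, at 809, 782 and 745 CPM against 815, 856 and 848 CPM in Antisense_NC (log2 fold change -0.11, adjusted p = 0.221, and -0.13 without the third library), although its groups did not overlap. With the GC trend removed it was lower too, and all 13 mRNAs passed.

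The rRNAs of the Antisense background parted from each other. MT-RNR1 fell from 3408, 3408 and 3372 CPM to 2382, 1860 and 2882 CPM (-0.52 ± 0.124, adjusted p = 2.1e-03, and -0.73 without the third library). MT-RNR2 measured 31263, 24055 and 41319 CPM against 27072 to 28521 CPM in Antisense_NC, a log2 fold change of 0.21 (adjusted p = 0.239), which became -0.05 without the third library. Its higher share of counts, described above, thus did not carry over to a call on the TMM scale, where the log2 ratio of scaling factors between these groups was 0.240. The number of MT-RNR2 counts per MT-RNR1 count was 8.0, 8.37 and 8.03 in Antisense_NC and 13.1, 12.9 and 14.3 in Antisense_hnRNPK. In Ctrl_hnRNPK it was 9.36, 9.32 and 7.61 against 7.21, 7.10 and 7.31 in Ctrl_NC, and in CRLM1_hnRNPK 8.38, 7.81 and 5.57 against 7.08, 7.01 and 7.14 in CRLM1_NC. Every Antisense_hnRNPK library therefore lay above every library of the other 5 groups. The part of any rRNA depletion or poly(A) selection in this ratio was not tested.

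**Figure D4:**
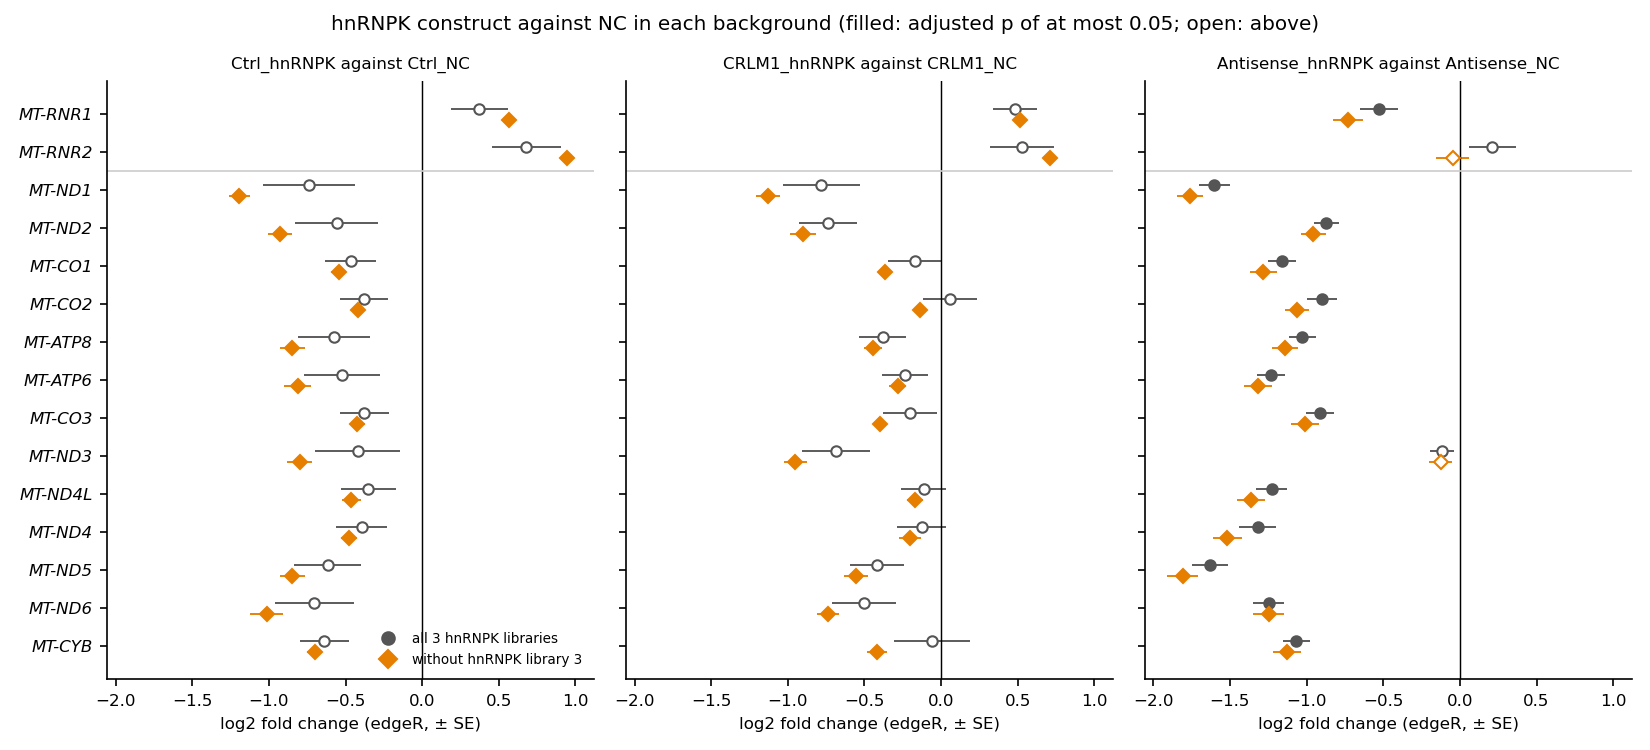
Log2 fold changes with standard errors of the 15 rRNAs and mRNAs for hnRNPK against NC in the Ctrl, CRLM1 and Antisense backgrounds, from all libraries (grey circles) and without the third hnRNPK library (orange diamonds), filled where the adjusted p was at most 0.05. Without the third library, both rRNAs lie above 0 and all mRNAs below 0 in the Ctrl and CRLM1 backgrounds.

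Whether the hnRNPK effect differed between backgrounds was tested with interaction terms. These terms use the same NC libraries as the comparisons above and are not independent of them. Antisense_NC, with a mean mRNA share of 3.79% against 2.96% in CRLM1_NC and 2.41% in Ctrl_NC, is the NC group of the Antisense background in them. Antisense minus CRLM1, 26 genes were tested and 6 had a more negative effect in the Antisense background by edgeR, where 1.12% of all genes passed (0.807% more negative). They were MT-ND5 (-1.20, adjusted p = 0.0293), MT-ND4 (-1.18, adjusted p = 0.0270), MT-ND4L (-1.10, adjusted p = 0.0270), MT-ATP6 (-0.99, adjusted p = 0.0270), MT-RNR1 (-0.99, adjusted p = 0.0384) and MT-CO1 (-0.98, adjusted p = 0.0407). Without the third hnRNPK libraries, 15 were more negative and 2 less, against 26.5% of all genes. For Antisense minus Ctrl, 0 of 27 passed and 13 had an unadjusted p under 0.05, as did 2179 of all 15346 genes. Without the third libraries 13 were more negative and 1 less (9.47% and 6.58% of all genes). For CRLM1 minus Ctrl, 0 of 24 passed, with 2 unadjusted p under 0.05, against 221 of all 15188 genes. Without the third libraries 4 passed, all of them less negative in the CRLM1 background: MT-ATP6 (0.56), MT-ATP8 (0.43), MT-ND4L (0.32) and MT-CO2 (0.31), where 3.45% of all genes did.

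GC content moved with the hnRNPK effects on nuclear genes, and the mitochondrial mRNAs were compared after its trend had been removed. Their median log2 fold changes were then -0.67, -0.40 and -1.59 in the Ctrl, CRLM1 and Antisense backgrounds, each further from 0 than with the trend left in. For the rRNAs the median was 0.30 in Ctrl and 0.30 in CRLM1, nearer to 0 than the 0.53 and 0.51 with the trend left in. In the Antisense background MT-RNR1 went from -0.52 to -0.78 and MT-RNR2 turned from 0.21 to -0.24 (adjusted p = 0.239). When the third library was left out as well, a combination chosen after seeing the data, both rRNAs were still higher and all 13 mRNAs lower in both of these backgrounds.

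Mitochondrial mRNAs were also set against the nuclear-encoded subunits of the same complexes, from a list of 79 genes. Counts of mitochondrial mRNAs per count of these subunits were 2.38, 2.28 and 2.45 in Ctrl_NC, 3.03, 2.98 and 2.86 in CRLM1_NC, and 4.44, 4.76 and 4.0 in Antisense_NC. With hnRNPK they were 1.97, 1.62 and 2.04 in Ctrl, 2.73, 2.33 and 2.49 in CRLM1, and 1.91, 2.07 and 2.39 in Antisense. The ratio was lower with hnRNPK in every background without overlap. The nuclear subunits went opposite to the mRNAs in Antisense_NC against Ctrl_NC, with 2 higher and 64 lower of 78 tested by edgeR (median log2 fold change -0.38), where 34.4% of all genes were higher and 32.2% lower. Among the most abundant of them, ATP5F1B (ATP synthase beta subunit) had -0.47, COX4I1 (complex IV) -0.32 and CYC1 (cytochrome c1 of complex III) -0.32. In CRLM1_NC against Ctrl_NC 3 of 77 were higher and 38 lower (median -0.12), against 16.9% and 17.4% of all genes. In Antisense_hnRNPK against Antisense_NC 25 of 78 were higher and 22 lower (median -0.05), shares near the 33.4% and 30.5% of all genes, and without the third library 23 were higher and 25 lower. With all libraries 0 passed in the Ctrl and CRLM1 hnRNPK comparisons, and without the third library 21 of 77 rose and 35 fell in Ctrl (29.6% and 29.9% of all genes), and 20 rose and 34 fell in CRLM1 (29.5% and 29.1% of all genes). The counts of rises are near those of all genes.

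A list of 51 nuclear factors for mitochondrial transcription, RNA processing and decay gave 32 higher and 9 lower in Antisense_NC against Ctrl_NC by edgeR (50 tested, median log2 fold change 0.43), where 34.4% of all genes were higher and 32.2% lower. TRMT10C, a subunit of the RNase P that cuts at the 5′ ends of tRNAs, rose from 2.04 to 7.52 CPM (log2 fold change 1.83, adjusted p = 1.2e-10), and DDX28, a helicase of the large mitoribosomal subunit, by 2.27. FASTKD3, a mitochondrial RNA-binding protein, rose by 1.36. Lower were MTERF2 by 0.92, POLG2, the accessory subunit of the mitochondrial DNA polymerase, by 0.72 and the nuclear receptor ESRRA by 0.62. In CRLM1_NC against Ctrl_NC 10 of 50 were higher and 5 lower, against 16.9% and 17.4% of all genes. Among them were TRMT10C at 0.80 (adjusted p = 9.7e-03) and ESRRA at -0.43, from 86.0 to 64.5 CPM.

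Under hnRNPK in the Antisense background 29 of 50 factors were higher and 13 lower by edgeR, with all libraries and also without the third, where 33.4% of all genes were higher and 30.5% lower with all libraries. POLRMT, the mitochondrial RNA polymerase, fell from 81.8 to 40.6 CPM (log2 fold change -1.02, adjusted p = 2.6e-07). In the Ctrl and CRLM1 backgrounds 0 factors passed with all libraries. Without the third library 19 of 50 were higher and 15 lower in Ctrl (29.6% and 29.9% of all genes), and 19 were higher and 14 lower in CRLM1 (29.5% and 29.1%). POLRMT, whose values there were looked up after the others were seen, fell by 0.63 (adjusted p = 3.6e-06) and 0.58 (adjusted p = 4.5e-08). TEFM, the transcription elongation factor, rose by 1.45 in the Antisense background (1.52 without the third library) and TRMT10C by 1.19 (1.15), from 7.52 to 17.2 CPM. PPRC1, a coactivator of nuclear genes for mitochondrial proteins, fell by 0.93, and ERAL1, a chaperone of the 12S rRNA encoded by MT-RNR1, fell by 0.70. The part of these genes in the mitochondrial RNA levels was not tested.

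**Figure D5:**
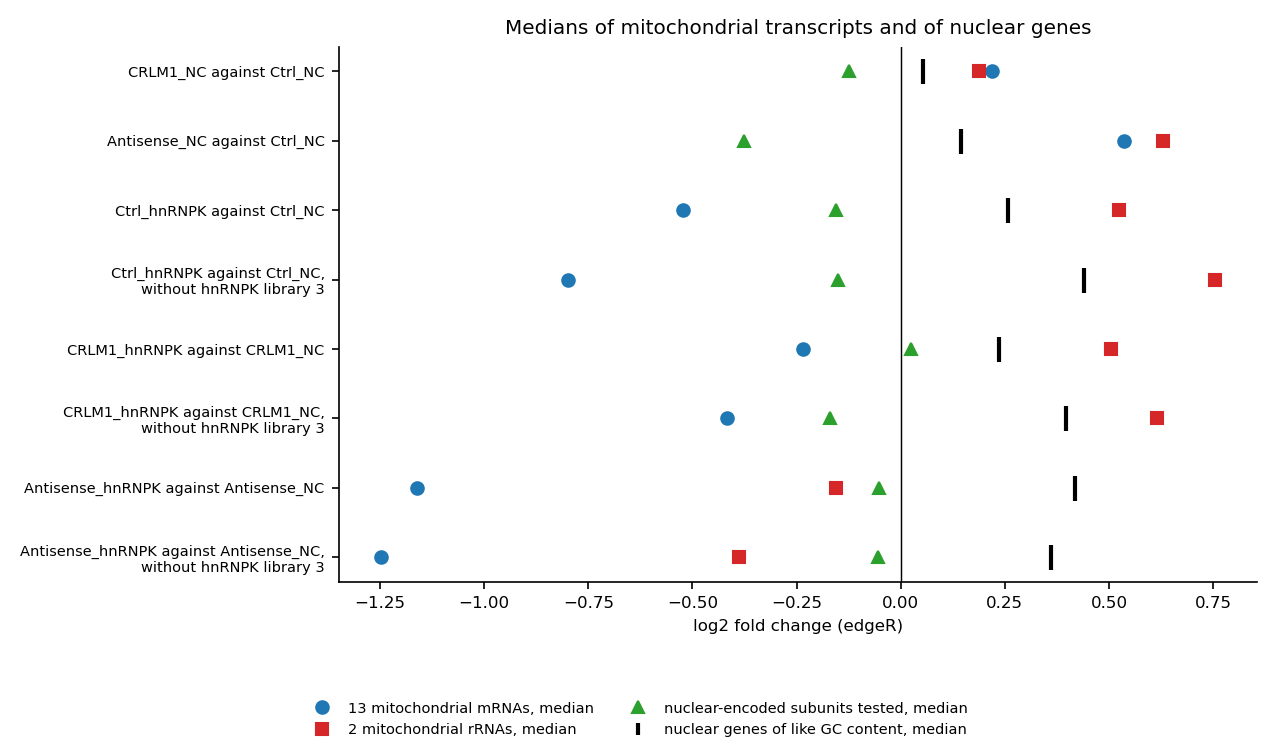
Median log2 fold changes of the 13 mitochondrial mRNAs, the 2 mitochondrial rRNAs and the nuclear-encoded subunits in each comparison, beside the median of nuclear genes of like GC content (black bars). In Antisense_hnRNPK against Antisense_NC the mRNA median is -1.16 and that of the nuclear genes 0.42.

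Some mitochondrial genes have near-identical copies in the nuclear genome, and reads of such stretches can be lost from unique mapping or go to either copy. The nuclear copy on chromosome 1, 629081 to 634924, matched chrM 3911 to 9755 at 98.5% identity. All windows of 151 bases of MT-ATP6 and MT-ATP8 (100%) matched a nuclear stretch with at most 4 differences, as did 90.9% of the windows of MT-CO1, 85% of MT-CO2 and 83.7% of MT-ND2. Exact copies were fewer: 14.2% of the windows of MT-CO1, 15.5% of MT-ND2, 10.2% of MT-RNR1 and 0% of MT-ATP6, MT-ATP8 and MT-CO2. No window was within 4 differences for MT-CYB, MT-ND3, MT-ND4L or MT-ND6 (0%). For MT-RNR1 42.5% were, for MT-CO3 41.5%, for MT-ND4 27.9%, for MT-ND1 25.1%, for MT-RNR2 22.4% and for MT-ND5 8.24%. The levels of MT-CO1, MT-CO2, MT-ND2, MT-ATP6 and MT-ATP8 are therefore uncertain, and so, for part of the gene, is that of MT-RNR1. The contrast between MT-ND3 and MT-CYB rests on genes with no such window. The 35 listed nuclear copies held 0.00927% to 0.0211% as many counts as the mitochondrial genes. Because the strand used in counting is not given in the sources used here, reads of MT-ND6 and of the light-strand tRNAs cannot be told apart from heavy-strand precursor RNA across them.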

How the data were processed

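RNA-seq was analysed from 18 HCT116 libraries (total RNA, TRIZOL, KAPA RNA HyperPrep, Illumina paired ends of 151 nt). Per the study's methods, the authors trimmed reads with FASTX-Toolkit, dropped reads under 16 nt and aligned with TopHat2 (4 mismatches) to GRCh38 with Gencode v23. The submitters' processing notes also name bcl2fastq and edgeR. The deposited count table holds whole numbers of uniquely mapped reads per gene. The deposited FPKM table holds values the authors normalised for exon length and mapped fragments. The counter, its strand setting and any rRNA depletion or poly(A) selection are not given in the sources used here.

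Members are genes with Chr equal to chrM. The members, lists and tests were chosen with earlier results of these data known. Counts were fitted in R 4.3.3 with edgeR 4.0.16 (TMM, filterByExpr, robust quasi-likelihood F-test, two-sided) on the libraries of each comparison, or of 4 groups for interactions. Benjamini-Hochberg adjustment ran over all genes tested, with a threshold of 0.05, and every adjusted p in the text comes from these fits. FPKM served only for levels between genes. Sums and ratios over the members are given without a p. Named genes are both rRNAs, all 13 mRNAs, the 3 tRNAs with the most counts, tRNAs past the filter, and from each list the 3 highest and 3 lowest among genes past the threshold, with the 3 most abundant subunits. MT-TM, MT-TW, MT-TD and the POLRMT values without the third library were picked after their values were seen.

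Alternatives were RLE scaling, no filter, DESeq2 1.42.0, a replicate block, a fit of all libraries, library sizes without chrM, removal of the GC trend, and leaving out each library. p-values measure the spread between these libraries, which the study calls biological replicates. Same-numbered libraries did not deviate together (correlations -0.0532 to 0.0288), so the numbers were not treated as pairs. Every pair of libraries of a group differed by more than counting noise. Nuclear copies were searched with BLAST 2.17.0 on GRCh38. The fit was tested on simulated data.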

Additional observations from a re-analysis of the deposited data

Results flagged for a closer look

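For 6 mitochondrial genes the hnRNPK effect differed between the Antisense and CRLM1 backgrounds by an interaction term (edgeR's quasi-likelihood test over 4 groups, Benjamini-Hochberg adjusted). The difference of log2 fold changes, Antisense minus CRLM1, was -1.18 for MT-ND4 (SE 0.217), -1.10 for MT-ND4L (SE 0.190), -1.20 for MT-ND5 (SE 0.232), -0.99 for MT-ATP6 (SE 0.183), -0.98 for MT-CO1 (SE 0.213) and -0.99 for MT-RNR1 (SE 0.210). Their adjusted p-values were 0.0270, 0.0270, 0.0293, 0.0270, 0.0407 and 0.0384. Without the third libraries of both hnRNPK groups, the differences were -1.28, -1.16, -1.22, -0.99, -0.88 and -1.21 in the same order. MT-ATP6, MT-CO1 and part of MT-RNR1 have near-identical nuclear copies, which makes their read assignment uncertain, and MT-ND4L shares 7 bases with MT-ND4. All 6 differences come from the same libraries, so they are not 6 separate measurements. The NC libraries among them, Antisense_NC included, are those of the comparisons between backgrounds.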

How the results depend on the processing

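TMM, RLE, DESeq2, library sizes without chrM and removal of the GC trend left each comparison's count of mitochondrial calls within 1.5 times its value. The shared fit of all libraries gave 0 higher and 0 lower for CRLM1_NC against Ctrl_NC (53 and 49 of all 15668 genes). It gave 0 higher and 5 lower for CRLM1_NC against Antisense_NC (1001 and 1355 of all genes). Without the filter on low counts, 2 were higher in CRLM1_NC against Antisense_NC (3628 of 25676 genes). In that setting 1 was higher and 2 lower for Ctrl_hnRNPK against Ctrl_NC (248 and 5 of 26849 genes). Leaving out each library gave 0 to 2 higher and 0 to 18 lower for Ctrl_hnRNPK and likewise 0 to 2 and 0 to 18 for CRLM1_hnRNPK, where the third library made the difference, and 0 to 1 higher for Antisense_hnRNPK. With the third library left out and the GC trend removed, chosen after seeing the data, these were 2 and 19 for Ctrl_hnRNPK and 2 and 20 for CRLM1_hnRNPK. Without the third libraries the interactions gave 1 higher and 13 lower (Antisense minus Ctrl), 4 higher (CRLM1 minus Ctrl), and 2 higher and 15 lower (Antisense minus CRLM1). With the replicate block, the counts were 17 higher and 1 lower (CRLM1_NC against Ctrl_NC), 1 and 19 (CRLM1_NC against Antisense_NC), 22 and 2 (Antisense_NC against Ctrl_NC), 0 and 0 under hnRNPK in Ctrl and CRLM1, 0 and 19 in Antisense, and 0 and 7 for the interaction Antisense minus CRLM1.

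Differences in shares depended on the denominator but kept their direction. With the TMM-scaled library size, the share of all mitochondrial genes differed by 0.728 (CRLM1_NC minus Ctrl_NC), -1.67 (CRLM1_NC minus Antisense_NC), 2.40 (Antisense_NC minus Ctrl_NC) and -1.78 (Antisense_hnRNPK minus Antisense_NC) percentage points. With counts outside chrM as the denominator it differed by -2.14 (CRLM1_NC minus Antisense_NC) and 3.11 (Antisense_NC minus Ctrl_NC). For CRLM1_NC minus Ctrl_NC, CRLM1_NC minus Antisense_NC and Antisense_NC minus Ctrl_NC, the rRNA share differed by 0.368, -1.18 and 1.55 outside chrM and by 0.268, -0.965 and 1.23 with TMM. The mRNA share differed by 0.459 (CRLM1_NC minus Ctrl_NC), 1.16 (Antisense_NC minus Ctrl_NC), -0.699 (Ctrl_hnRNPK minus Ctrl_NC) and -2.14 (Antisense_hnRNPK minus Antisense_NC) with TMM and by 1.56 outside chrM (Antisense_NC minus Ctrl_NC), and the tRNA share by 0.00704 outside chrM (Antisense_NC minus Ctrl_NC) and -0.00463 with TMM (Antisense_hnRNPK minus Antisense_NC).

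Averaged over NC and hnRNPK, differences are given with all libraries and then without the third hnRNPK libraries. Antisense minus Ctrl was 1.93 and 1.42 points for all mitochondrial genes, 1.21 and 0.686 for rRNA, 0.187 and 0.218 for the log2 ratio of complex I to complex IV mRNAs and 0.534 and 0.523 for that of mRNAs to nuclear subunits. CRLM1 minus Antisense was -1.09 and -0.624 points for rRNA and -0.136 and -0.151 for MT-ND4L to MT-ND4, and CRLM1 minus Ctrl was -0.222 and -0.255 for rRNA to mRNA. The ratios of MT-ND6 to the heavy-strand mRNAs (CRLM1 minus Ctrl, -0.0203 and 0.0256) and of MT-ATP8 to MT-ATP6 (hnRNPK minus NC, 0.0032 and -0.0046) turned their direction. A few single genes turned their direction. In CRLM1_NC against Ctrl_NC, MT-ATP8 was at -0.0443 with the GC trend removed, -0.0439 with the replicate block as well, and -0.0108 to 0.0725 leaving out a library. MT-ATP6 was at -0.0385, -0.0397 and -0.0134 to 0.0522. In CRLM1_hnRNPK against CRLM1_NC, MT-CO2 was at -0.0188, -0.0745 with the block, -0.34 with the third library left out as well as the GC trend (adjusted p = 5.2e-07 by edgeR, a call gained), and -0.137 to 0.146 leaving out a library, and MT-CYB at -0.418 (without the third library) to 0.132 (without the first). MT-RNR2 in Antisense_hnRNPK was at -0.24, -0.27 and -0.44 under these settings, the last a call gained (adjusted p = 4.4e-03), and -0.0468 to 0.359 leaving out a library. Apart from the settings named, causes were not tested.

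Depth limits the tRNAs, most of which could not be tested, and counting intervals do not cover PCR duplicates. With 3 libraries a group, an exact permutation test cannot go below 0.1, so single values rest on the fits across all genes.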
